A study of Mus musculus with 8 samples.

Results

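The genes described here are 36 named genes of sterol and fatty acid metabolism, followed in mouse bone marrow-derived dendritic cells during stimulation with CpG. They were taken by gene symbol from the 25017 named rows of the expression table, and all 36 were present. They comprise 17 enzymes of sterol synthesis, 5 genes that control or serve the SREBP transcription factors, 8 genes of fatty acid synthesis and desaturation, and 6 genes of sterol efflux and of the LXR receptors. The study asks how RelB, a subunit of the transcription factor NF-κB, restrains inflammatory gene expression.

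Cells sense CpG, an unmethylated DNA oligonucleotide, through the endosomal receptor TLR9. Bone marrow of C57BL/6 mice was grown into dendritic cells with GM-CSF (20 ng/ml) in the presence of IL-4 at 10 ng/ml, and CpG (ODN 1668) was given at 0.1 µM. The cells were of the genotype IFNAR;RelB-DBDB or RelB-DBDB. Both genotypes therefore carry the RelB-DBDB alleles, which the labels do not define further, and IFNAR;RelB-DBDB in addition carries a knockout of IFNAR, the receptor for type I interferons. Libraries were made at 1, 3 and 8 h of CpG, and from a control labelled 1 h, with 1 library per genotype and condition (8 in all). No control was labelled 3 or 8 h, so time in culture and CpG cannot be told apart in the later changes. The labels do not give sex, age or the number of mice behind a library, and wild type cells were not analysed here.

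Cells build cholesterol from acetyl-CoA through the mevalonate pathway, squalene and lanosterol. The genes for these enzymes, and those for making and desaturating fatty acids, are driven by the SREBP transcription factors, membrane proteins of the endoplasmic reticulum that the escort protein SCAP carries to the Golgi for activation when sterols are scarce. INSIG proteins hold SCAP back when sterols are plentiful. The LXR nuclear receptors answer to oxysterols instead and switch on export pumps for cholesterol, and in macrophages and dendritic cells stimulation of Toll-like receptors is known to reshape both arms.

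SREBPs act at sterol regulatory elements and do so together with NF-Y, a factor that binds the CCAAT box. Of the 36 genes, 28 had a RefSeq window of 250 bases before to 50 bases after an annotated start (GRCm38.p6, the same assembly as mm10). No window was at hand for Scd1, Scd2, Fads1, Sqle, Fdft1, Fdps, Stard4 and Abcg1. The windows of 5 genes are printed 5′ to 3′ on the strand of the gene, to show where these letters lie, Hmgcs1 because it holds the core and the others because results below turn on them. Capitals mark the CCAAT box, which reads ATTGG on the other strand, and the sterol regulatory element core TCACCCC, searched on both strands, the core having been picked after the windows had been read.
Dhcr7 (chr7:143829964-143830263, plus strand): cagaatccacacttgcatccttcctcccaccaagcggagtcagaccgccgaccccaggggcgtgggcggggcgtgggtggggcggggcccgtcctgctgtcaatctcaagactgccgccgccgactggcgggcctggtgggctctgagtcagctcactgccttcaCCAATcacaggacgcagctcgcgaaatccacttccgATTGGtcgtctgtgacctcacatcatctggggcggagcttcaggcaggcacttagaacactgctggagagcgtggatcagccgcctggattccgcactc
Insig1 (chr5:28071162-28071461, plus strand): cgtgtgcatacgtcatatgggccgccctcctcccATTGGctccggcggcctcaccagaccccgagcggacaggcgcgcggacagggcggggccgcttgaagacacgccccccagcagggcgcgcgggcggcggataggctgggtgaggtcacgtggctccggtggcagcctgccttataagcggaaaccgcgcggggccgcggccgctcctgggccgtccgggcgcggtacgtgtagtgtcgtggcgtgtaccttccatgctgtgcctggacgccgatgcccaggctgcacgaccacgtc
Srebf2 (chr15:82147019-82147318, plus strand): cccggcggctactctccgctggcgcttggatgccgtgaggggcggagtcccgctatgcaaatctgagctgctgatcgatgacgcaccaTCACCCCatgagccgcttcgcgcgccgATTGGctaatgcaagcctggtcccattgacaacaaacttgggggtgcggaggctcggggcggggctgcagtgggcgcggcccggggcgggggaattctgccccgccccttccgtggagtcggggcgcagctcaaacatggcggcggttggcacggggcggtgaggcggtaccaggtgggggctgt
Hmgcs1 (chr13:119690101-119690400, plus strand): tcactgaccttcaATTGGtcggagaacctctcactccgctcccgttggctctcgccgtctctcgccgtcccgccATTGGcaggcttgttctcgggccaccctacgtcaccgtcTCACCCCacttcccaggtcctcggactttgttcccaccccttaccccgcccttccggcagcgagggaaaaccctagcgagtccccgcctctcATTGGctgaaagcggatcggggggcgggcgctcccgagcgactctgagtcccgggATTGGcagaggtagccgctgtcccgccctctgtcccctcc
Fasn (chr11:120824498-120824797, minus strand): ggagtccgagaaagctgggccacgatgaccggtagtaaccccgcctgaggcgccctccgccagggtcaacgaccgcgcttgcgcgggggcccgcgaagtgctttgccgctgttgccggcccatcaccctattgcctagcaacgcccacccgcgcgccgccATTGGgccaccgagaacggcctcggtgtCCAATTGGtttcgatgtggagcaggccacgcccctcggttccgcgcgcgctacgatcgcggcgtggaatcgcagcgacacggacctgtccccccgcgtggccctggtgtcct
The Dhcr7 window belongs to 1 of 3 annotated starts, the one with the most matches, and holds a CCAAT box 85 and another 49 bases before the start. In Srebf2 the core lies 162 bases before the start, with a CCAAT box 135 bases before it. In Hmgcs1 the core lies 137 bases before the start, among 4 CCAAT boxes. The last pair of the 3 boxes of Fasn overlaps, its letters reading the same on both strands.

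Over all windows of a gene, a CCAAT box was found in 13 of 14 sterol synthesis genes with a window, with Acat2 the exception, and in 3 of 4 SREBP control genes (Insig1, Srebf1 and Srebf2). It was found in 2 of 5 fatty acid synthesis genes (Fasn and Acly) and in 1 of 5 sterol efflux and LXR genes (Mylip). In all, 67.9% of the 28 genes held it, against 43.0% of the 9152 tested genes with a window and 41.1% of all 27025 genes with one. The core was found in 3 of the 28 genes (Hmgcs1, Srebf2 and Nr1h3), which is 10.7%, against 6.37% of the 9152 tested genes and 5.61% of all genes with a window. Genes with several starts have several chances to match. The match is a description of the letters. The box is present in Dhcr7, which fell, and in Pmvk, which rose, and its relation to the change was not tested.

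The values are CPM, the reads of a gene scaled so that all libraries have an equal total. The libraries held 3711818 to 11977778 reads in IFNAR;RelB-DBDB and 6159951 to 37221530 reads in RelB-DBDB, and the RelB-DBDB library at 8 h stood apart. It was the deepest, its mitochondrially encoded genes took 6.26% of reads against 1.74% to 2.41% in the other 7 libraries, and its scaling factor by the median-ratio method was 0.792 against 0.955 to 1.11. Its sum of 10 dendritic cell markers was 8372 CPM, the lowest of the 8 libraries, against 11973 to 15260 CPM in the others, and none of the 10 markers was at 0 in all libraries. Most of this sum came from Cd74, H2-Ab1 and H2-Aa. These genes, Itgax, Flt3 and Clec9a were below the RelB-DBDB control in that library. Ccr7 (1119 against 963 CPM), Ciita (203 against 157 CPM) and Zbtb46 (87.7 against 76.0 CPM) were above it. A sum of 10 T and NK cell markers was 220 to 270 CPM in IFNAR;RelB-DBDB and 36.9 to 73.7 CPM in RelB-DBDB, and a sum of 20 cell cycle genes was 784 to 896 CPM in IFNAR;RelB-DBDB and 337 to 497 CPM in RelB-DBDB, lowest in RelB-DBDB at 8 h. Sums of neutrophil, eosinophil, and mast cell and basophil markers were lower at 8 h than in control as well. For 10 neutrophil markers the sum was 185 CPM at 8 h against 251 CPM in control in IFNAR;RelB-DBDB, and 124 CPM against 237 CPM in RelB-DBDB. For 7 eosinophil markers it was 70.6 CPM at 8 h against 246 CPM in control in IFNAR;RelB-DBDB, and 117 CPM against 212 CPM in RelB-DBDB, most of it from Ear2. For 9 mast cell and basophil markers it was 40.7 CPM at 8 h against 45.2 CPM in control in IFNAR;RelB-DBDB, and 9.67 CPM against 23.5 CPM in RelB-DBDB. The 9 macrophage and monocyte markers found in the table summed to 1362 to 1751 CPM in IFNAR;RelB-DBDB and 1269 to 1806 CPM in RelB-DBDB. Ifnar1, which encodes a chain of the deleted receptor, was at 86.3, 102, 56.1 and 68.2 CPM in IFNAR;RelB-DBDB in control and at 1, 3 and 8 h, and at 127, 123, 102 and 125 CPM in RelB-DBDB, so reads of the gene remained and its level does not by itself check the label. In bulk RNA, fewer cells of a type and less RNA per cell cannot be told apart, and the part of cell makeup in the results below was not tested.

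Changes were fitted with limma on log2(CPM + 1) over both genotypes together, with genotype and condition as terms, on the 12297 genes that reached 1 CPM in 2 or more libraries. All 36 genes passed, Ch25h only through CpG libraries at 3 h and 8 h. The labels name no second culture per group, so the spread behind each p-value comes from the disagreement between the genotypes. For each gene, limma draws this spread toward a trend over all genes tested, so other genes share in it. The comparisons at 1, 3 and 8 h share the same 2 control libraries. At 1 h none of the 36 genes passed an adjusted p of 0.05 (limma, Benjamini-Hochberg), where 0.0651% of all genes did, none had an unadjusted p under 0.05 and limma-voom called 0 as well. The 1 h changes lay between -0.51 (Nr1h3) and 0.18 (Hsd17b7) on the log2 scale. At 3 h 4 of the 36 passed, 3 lower (Dhcr7, Scd1 and Scd2) and 1 higher (Ch25h), where 7.51% of all genes passed, 3.87% lower and 3.64% higher. At 8 h 12 passed, 10 lower and 2 higher, where 21.6% of all genes passed, 15.1% lower and 6.51% higher. With 1 library per genotype and condition these counts lean on single libraries. The count at 3 h was 0 without either control or either 3 h library and 17 without either 8 h library. That at 8 h was 4 without the IFNAR;RelB-DBDB control, 2 without the RelB-DBDB control, 5 and 6 without the 3 h library of IFNAR;RelB-DBDB and of RelB-DBDB, and 30 and 14 without the 8 h library of IFNAR;RelB-DBDB and of RelB-DBDB. Dhcr7 and Scd1 passed at 8 h under each of the 20 alternatives tried.

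**Figure D1:**
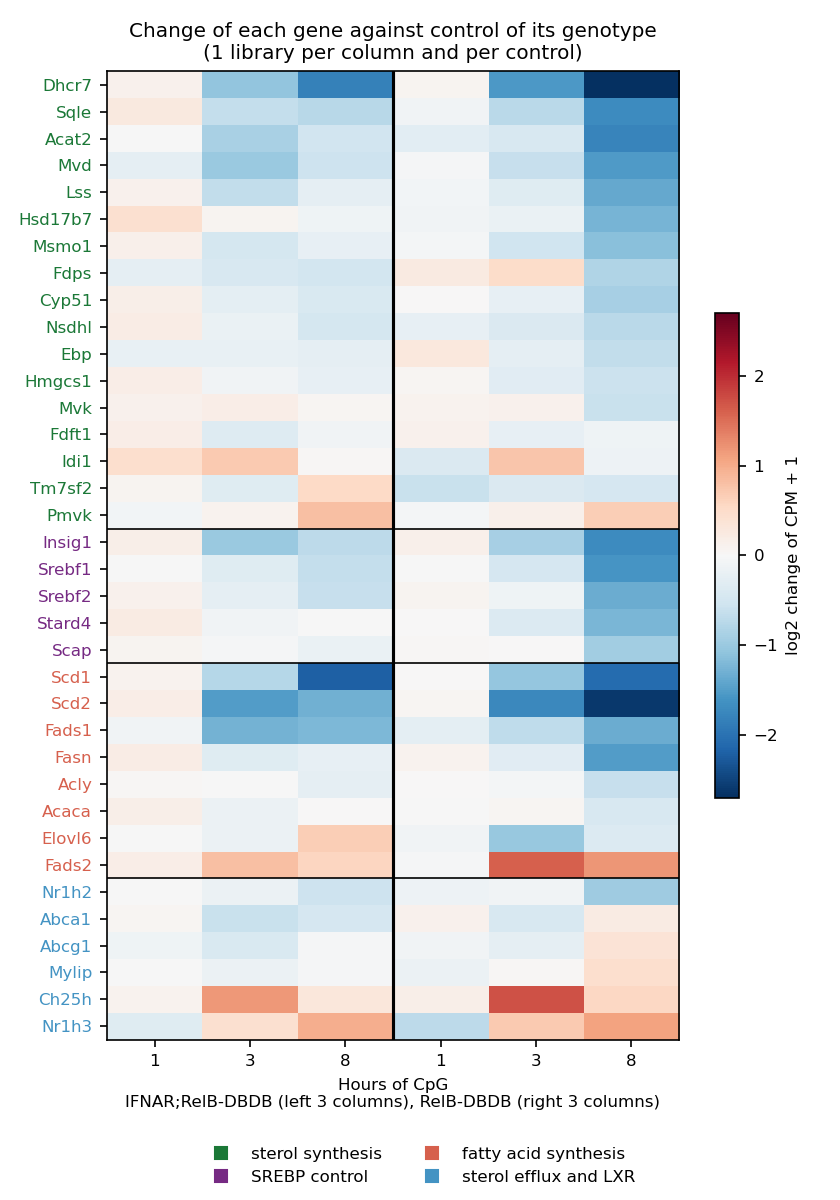
Colour gives the log2 change of CPM + 1 against the control of the same genotype for each of the 36 genes (rows, grouped by role and ordered by the fitted 8 h change) at 1, 3 and 8 h of CpG, with IFNAR;RelB-DBDB in the left columns and RelB-DBDB in the right ones, 1 library each. Blue (lower) deepens at 8 h in RelB-DBDB for most sterol synthesis and SREBP control genes, while Nr1h3 and Pmvk are red (higher) at 8 h in both genotypes.

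Among the sterol synthesis genes, Dhcr7, Sqle and Cyp51 fell by 8 h and Pmvk rose. The 3 that fell are 17.6% of the 17 enzymes, close to the 15.1% of all genes that were called lower. The median 8 h change of the 17 was -0.65 on the log2 scale, with 15 below 0, against -0.23 over all genes with 67.0% below 0. Leaving out the 8 h library of IFNAR;RelB-DBDB brought it to -0.87, and leaving out that of RelB-DBDB to -0.26. With median-ratio factors, which bring the median of all genes to 0.0071, the median of the 17 was -0.39, and 2 fell and 1 rose. Dhcr7 already fell at 3 h. Dhcr7 (chr7:143823145-143848410, plus strand) encodes the reductase that makes cholesterol from its last precursor. It was at 36.7, 39.6, 16.9 and 9.70 CPM in IFNAR;RelB-DBDB in control and at 1, 3 and 8 h of CpG, and at 36.5, 38.3, 11.7 and 4.84 CPM in RelB-DBDB. Both 8 h libraries lay below both 3 h libraries, and these below the controls and the 1 h libraries, with no overlap. The fitted change was -1.32 ± 0.25 (log2, SE) at 3 h with a limma adjusted p of 0.026, and -2.25 ± 0.25 at 8 h with an adjusted p of 0.00219.

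In the first steps, from acetyl-CoA to the isoprenoid units, the genes did not move as one. Pmvk (chr3:89454541-89469013, plus strand), which encodes phosphomevalonate kinase, was at 47.8, 45.3, 50.98 and 84.1 CPM in IFNAR;RelB-DBDB in control and at 1, 3 and 8 h, and at 39.2, 37.99, 43.1 and 62.3 CPM in RelB-DBDB. Its 8 h libraries were the highest of each genotype, and the fitted change was 0.73 ± 0.14 (limma adjusted p = 0.0158). Acat2, the cytosolic thiolase at the entry, was at 11.9, 11.9, 6.01 and 8.08 CPM in IFNAR;RelB-DBDB and at 12.6, 10.1, 9.005 and 2.96 CPM in RelB-DBDB, and 39.1% of its stretches of 50 bases are shared with other genes (Acat3 and Tcp1), so its reads may be split. Mvd, the decarboxylase that forms isopentenyl diphosphate, was at 57.2, 47.9, 28.2 and 38.3 CPM in IFNAR;RelB-DBDB and at 48.8, 47.7, 31.6 and 16.2 CPM in RelB-DBDB. In both genes the RelB-DBDB library at 8 h was the lowest of the 8, and the fitted changes of -1.14 ± 0.39 and -1.05 ± 0.31 missed the threshold (limma adjusted p = 0.0725 and 0.0531). Mvk, mevalonate kinase, was at 23.5, 25.7, 26.8 and 24.5 CPM in IFNAR;RelB-DBDB and 20.7, 22.2, 22.7 and 13.4 CPM in RelB-DBDB, lower only in the last of these libraries. Hmgcs1, HMG-CoA synthase, whose window above holds the sterol regulatory element core, had a fitted 8 h change of -0.40 ± 0.14 (limma adjusted p = 0.0757), Idi1, an isopentenyl diphosphate isomerase, of -0.06 ± 0.27, and Fdps, farnesyl diphosphate synthase, of -0.66 ± 0.32. Idi1 and Fdps share 25.3% and 26.2% of their stretches of 50 bases with other annotated genes.

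Sqle (chr15:59315077-59331192, plus strand) encodes squalene epoxidase, the first oxygen-dependent step. It was at 81.4, 98.2, 52.1 and 48.2 CPM in IFNAR;RelB-DBDB in control and at 1, 3 and 8 h, and at 107, 101, 64.1 and 32.1 CPM in RelB-DBDB. All libraries at 3 and 8 h lay below all controls and 1 h libraries, and the fitted 8 h change was -1.23 ± 0.24 (limma adjusted p = 0.0149). Cyp51, the lanosterol demethylase, was at 90.3, 101, 74.7 and 67.4 CPM in IFNAR;RelB-DBDB and at 110.1, 111, 94.3 and 59.1 CPM in RelB-DBDB. Its 8 h library was the lowest of each genotype, and its fitted change of -0.65 ± 0.17 passed with an adjusted p of 0.0351 (limma) but no longer with median-ratio factors. Lss, lanosterol synthase, was at 47.6, 51.5, 29.9 and 40.1 CPM in IFNAR;RelB-DBDB and at 46.3, 43.7, 36.7 and 17.3 CPM in RelB-DBDB. In IFNAR;RelB-DBDB its lowest library was that at 3 h, in RelB-DBDB that at 8 h, and the fitted change was -0.81 ± 0.32 (limma adjusted p = 0.11).

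Of the enzymes that trim lanosterol to cholesterol, Msmo1, a methylsterol oxidase, was at 71.3, 78.3, 51.2 and 61.2 CPM in IFNAR;RelB-DBDB and at 90.9, 87.3, 62.2 and 41.3 CPM in RelB-DBDB in control and at 1, 3 and 8 h. Hsd17b7, a keto-sterol reductase, was at 28.7, 39.3, 30.2 and 26.4 CPM in IFNAR;RelB-DBDB and at 38.99, 36.7, 34.5 and 15.7 CPM in RelB-DBDB. Msmo1 was lowest at 3 h in IFNAR;RelB-DBDB, and both genes were lowest at 8 h in RelB-DBDB, with fitted 8 h changes of -0.67 ± 0.23 and -0.69 ± 0.27 that missed the threshold (limma adjusted p = 0.0784 and 0.108). The sterol dehydrogenase Nsdhl had -0.60 ± 0.19, the isomerase Ebp -0.45 ± 0.23, the sterol reductase Tm7sf2 0.05 ± 0.30 and squalene synthase Fdft1 -0.11 ± 0.16 on the log2 scale. None of these 4 passed, the signs of Tm7sf2 and Fdft1 turn under other settings, and 26.5% of the stretches of 50 bases of Fdft1 are shared, mostly with Ctsb on the opposite strand.

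**Figure D2:**
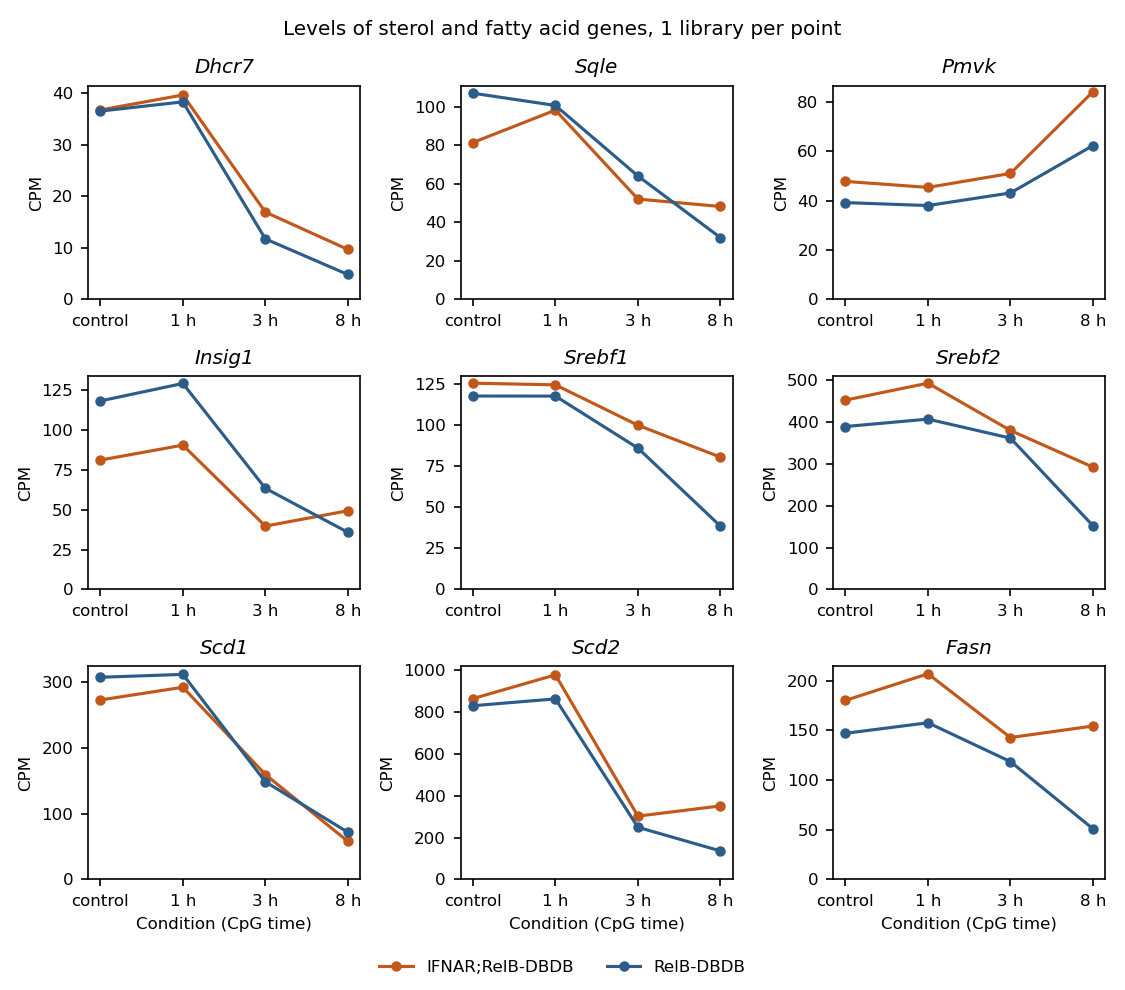
CPM (vertical axis, from 0) in control and at 1, 3 and 8 h of CpG (horizontal axis) for 9 genes, with 1 library per point and a line for IFNAR;RelB-DBDB (orange) and for RelB-DBDB (blue). Scd1 and Dhcr7 descend in both genotypes, and Pmvk climbs in both. Scd2 and Fasn separate at 8 h, where IFNAR;RelB-DBDB is higher. The lines of Insig1 cross, with IFNAR;RelB-DBDB lower up to 3 h and higher at 8 h.

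Of the 5 genes that control the pathway, Insig1, Srebf1 and Srebf2 fell by 8 h, and Scap and Stard4 did not pass. The median 8 h change of the 5 was -0.99 on the log2 scale against -0.23 over all genes (-0.72 against 0.0071 with median-ratio factors). This median became -1.36 when the IFNAR;RelB-DBDB library at 8 h was left out, and -0.61 when that of RelB-DBDB was. None of the 5 passed at 3 h. Insig1 (chr5:28071363-28078662, plus strand), itself a target of the SREBPs that it restrains, was at 81.1, 90.4, 39.7 and 49.3 CPM in IFNAR;RelB-DBDB in control and at 1, 3 and 8 h, and at 118, 129, 63.4 and 35.8 CPM in RelB-DBDB. In both genotypes the 3 h and 8 h libraries lay below control and 1 h, and at 8 h the order of the genotypes was the reverse of that in control. Its fitted 8 h change was -1.20 ± 0.27 (limma adjusted p = 0.0238).

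Srebf1 (chr11:60199089-60222581, minus strand) encodes the SREBP tied mainly to fatty acid genes, and Srebf2 (chr15:82147181-82205379, plus strand) the one tied mainly to sterol genes. Srebf1 was at 126, 125, 99.96 and 80.6 CPM in IFNAR;RelB-DBDB in control and at 1, 3 and 8 h, and at 118, 118, 86.1 and 38.6 CPM in RelB-DBDB. Srebf2 was at 452, 492, 379 and 292 CPM in IFNAR;RelB-DBDB and at 389, 406, 361 and 152 CPM in RelB-DBDB. Both genes declined from 1 h on in each genotype, and the lowest library of the 8 was RelB-DBDB at 8 h. Their fitted 8 h changes were -1.11 ± 0.25 and -0.99 ± 0.21 (limma adjusted p = 0.0228 and 0.0202). Scap, the SREBP escort, was at 72.4, 76.2, 70.5 and 63.9 CPM in IFNAR;RelB-DBDB and at 62.01, 63.3, 62.9 and 31.9 CPM in RelB-DBDB. Stard4, a carrier of cholesterol between membranes, was at 80.4, 93.5, 75.4 and 79.7 CPM in IFNAR;RelB-DBDB and at 91.97, 92.05, 71.2 and 38.4 CPM in RelB-DBDB. In Scap and Stard4 only the RelB-DBDB library at 8 h stood below the rest, and the fitted changes of -0.56 ± 0.22 and -0.62 ± 0.28 missed the threshold (limma adjusted p = 0.108 and 0.144).

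The fatty acid genes divided into desaturases that fell, synthesis enzymes that did not pass and a desaturase whose values were higher. Of 8 genes 6 had a change below 0 at 8 h, with a median of -0.65 on the log2 scale against -0.23 over all genes (-0.38 against 0.0071 with median-ratio factors), and Scd1, Scd2 and Fads1 fell. With the 8 h library of IFNAR;RelB-DBDB left out the median was -1.01, and with that of RelB-DBDB left out it was -0.25. Scd1 (chr19:44394455-44407879, minus strand) and Scd2 (chr19:44293674-44306864, plus strand) encode stearoyl-CoA desaturases, which make monounsaturated fatty acids, and share 4.56% and 3.97% of their stretches of 50 bases with each other and with Scd3 and Scd4. Scd1 was at 273, 292, 159 and 57.9 CPM in IFNAR;RelB-DBDB in control and at 1, 3 and 8 h, and at 307, 311, 148 and 71.7 CPM in RelB-DBDB. The genotypes ran side by side, with each step after 1 h lower than the one before. Scd1 fell by 3 h (-0.91 ± 0.14, limma adjusted p = 0.0141) and further by 8 h (-2.15 ± 0.14, adjusted p = 0.000327), and it alone of the 36 genes fell between 3 h and 8 h (-1.24 ± 0.14, adjusted p = 0.0166), where 1.71% of all genes passed, 1.07% lower and 0.634% higher.

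Scd2 was at 863, 976, 302 and 351 CPM in IFNAR;RelB-DBDB in control and at 1, 3 and 8 h, and at 829, 861, 249 and 136 CPM in RelB-DBDB. Every 3 h and 8 h library was below every control and 1 h library, but from 3 h to 8 h the level was lower in RelB-DBDB only. Its fitted change was -1.62 ± 0.30 at 3 h and -1.95 ± 0.30 at 8 h (limma adjusted p = 0.0233 and 0.00645). Fads1 and Fads2, neighbours on chromosome 19, encode desaturases of polyunsaturated fatty acids. Fads1 was at 41.4, 38.9, 16.6 and 17.2 CPM in IFNAR;RelB-DBDB and at 24.3, 19.97, 14.7 and 8.92 CPM in RelB-DBDB, and fell by 8 h (-1.28 ± 0.23, limma adjusted p = 0.0116). Fads2 was at 10.7, 12.1, 19.7 and 16.4 CPM in IFNAR;RelB-DBDB and at 4.85, 4.71, 16.98 and 12.4 CPM in RelB-DBDB, with values at 3 h and 8 h above all controls and 1 h libraries, and missed the threshold (1.22 ± 0.29 at 3 h and 0.89 ± 0.29 at 8 h, limma adjusted p = 0.0502 and 0.0669).

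Fasn (chr11:120805846-120824547, minus strand), the fatty acid synthase, was at 180.2, 207, 143 and 154 CPM in IFNAR;RelB-DBDB in control and at 1, 3 and 8 h, and at 147, 158, 119 and 50.97 CPM in RelB-DBDB. Only the RelB-DBDB library at 8 h stood well below the rest, and the fitted change over both genotypes, -0.87 ± 0.32, missed the threshold (limma adjusted p = 0.0882). Acly, ATP citrate lyase, which supplies acetyl-CoA to both pathways, was at 417, 424, 413 and 351 CPM in IFNAR;RelB-DBDB and at 452, 454, 435 and 294 CPM in RelB-DBDB (-0.43 ± 0.14, limma adjusted p = 0.0677). The carboxylase Acaca had a fitted 8 h change of -0.22 ± 0.19 and the elongase Elovl6 of 0.15 ± 0.31, neither past the threshold, and 30.4% of the stretches of 50 bases of Acaca are shared, mainly with Gm5182.

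**Figure D3:**
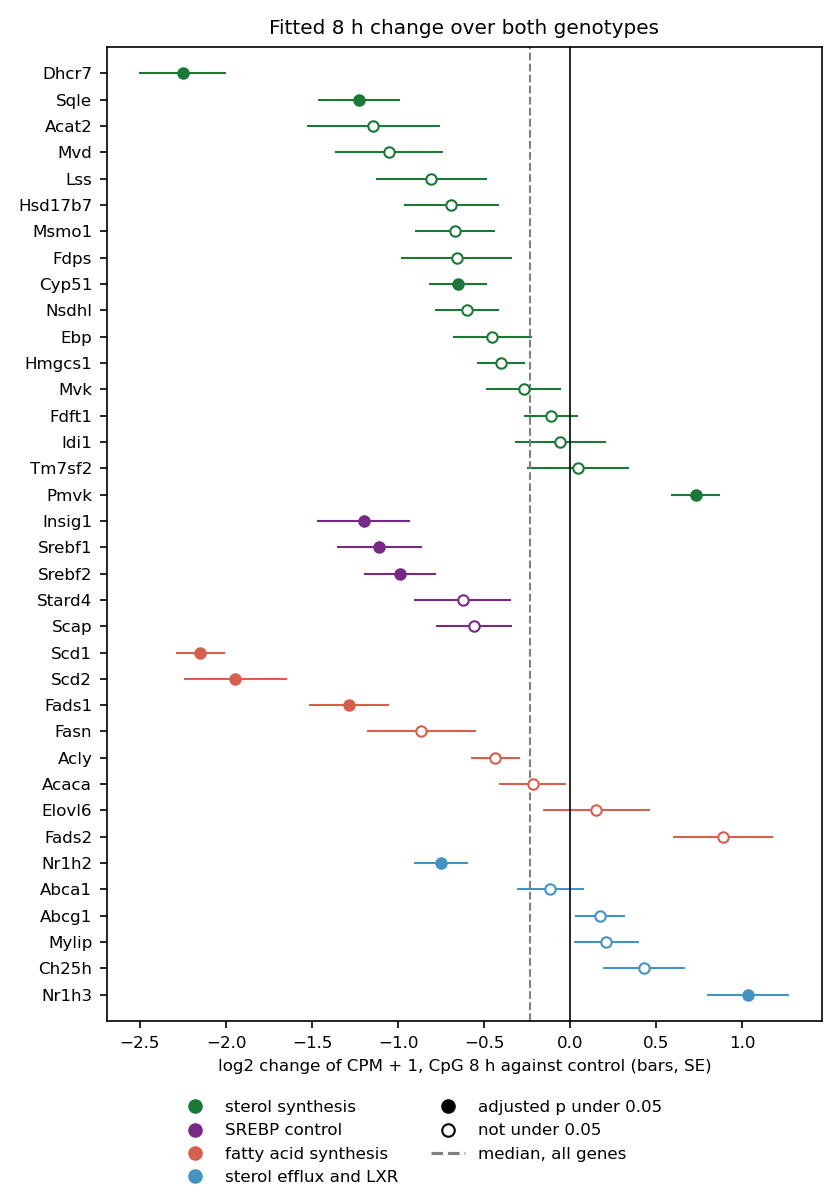
Points give the fitted log2 change of CPM + 1 at 8 h against control over both genotypes (horizontal axis, bars are SE) for each of the 36 genes, grouped by role, and filled points have a limma adjusted p under 0.05. The dashed line is the median of all genes, -0.23. Dhcr7 and Scd1 lie farthest to the left, while the sterol efflux and LXR genes other than Nr1h2 lie to the right of the dashed line.

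Of the 6 sterol efflux and LXR genes, Nr1h3 rose and Nr1h2 fell by 8 h, where 6.51% of all genes were called higher and 15.1% lower. Their median 8 h change was 0.19 on the log2 scale, against -0.23 over all genes, but -0.016 when RelB-DBDB at 8 h was left out, so its sign rests on that library. Nr1h3 and Nr1h2 encode the LXR receptors alpha and beta. Nr1h3 was at 3.76, 2.80, 5.46 and 8.35 CPM in IFNAR;RelB-DBDB in control and at 1, 3 and 8 h, and at 3.80, 1.95, 6.84 and 9.27 CPM in RelB-DBDB. These are 12 to 60 reads in 7 of the libraries and 345 in RelB-DBDB at 8 h, so counting error limits the values of Nr1h3. Nr1h2 was at 142, 142, 127 and 96.99 CPM in IFNAR;RelB-DBDB and at 126, 114, 118 and 64.5 CPM in RelB-DBDB. The receptors thus moved in opposite directions by 8 h, with 1.04 ± 0.24 for Nr1h3 and -0.75 ± 0.16 for Nr1h2 (limma adjusted p = 0.0255 and 0.0186).

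Abca1 and Abcg1 encode the pumps that export cholesterol, and Mylip an LXR-induced ubiquitin ligase. Abca1 was at 62.03, 64.7, 40.8 and 45.3 CPM in IFNAR;RelB-DBDB in control and at 1, 3 and 8 h, and at 54.1, 58.6, 39.7 and 62.9 CPM in RelB-DBDB. Both genotypes were lower at 3 h than in control, and at 8 h the level was above control in RelB-DBDB and below it in IFNAR;RelB-DBDB. The fitted 8 h changes of Abca1, Abcg1 and Mylip were -0.12 ± 0.20, 0.17 ± 0.15 and 0.21 ± 0.19, none past the threshold, and their signs turn under other settings. Ch25h, which encodes the enzyme that makes an oxysterol from cholesterol, was at 0.25, 0.34, 1.82 and 0.539 CPM in IFNAR;RelB-DBDB and at 0.761, 0.974, 4.79 and 1.59 CPM in RelB-DBDB, highest at 3 h in each genotype. These levels are low: 3 reads correspond to 0.0806 to 0.808 CPM, depending on the library. Ch25h rose by 3 h (1.45 ± 0.24, limma adjusted p = 0.0157) and did not pass at 8 h (0.43 ± 0.24). It reached 1 CPM only at 3 h in both genotypes and at 8 h in RelB-DBDB. Its entry into the test thus depended on the libraries where it was high. In IFNAR;RelB-DBDB it had 3 reads in control and 10 at 3 h.

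Over all conditions, 0 of the 36 genes passed between the genotypes at an adjusted p of 0.05 (limma), where 6.25% of all genes did, 4.59% higher and 1.66% lower. At an unadjusted p under 0.05 there were 12, limma-voom called 2, and 8 passed without either 8 h library. The genes nearest the threshold were Ch25h (-0.71 ± 0.17, adjusted p = 0.0563), Abcg1 (0.43 ± 0.10, 0.0594) and Fads1 (0.68 ± 0.16, 0.0597). Taken within each genotype, where 1 library is set against 1 control and no test is possible, the median 8 h change of the sterol synthesis genes was -0.24 in IFNAR;RelB-DBDB and -0.82 in RelB-DBDB on the log2 scale. That of the SREBP control genes was -0.63 in IFNAR;RelB-DBDB and -1.35 in RelB-DBDB, and that of the fatty acid genes -0.24 and -0.98. Over all genes the medians were -0.12 in IFNAR;RelB-DBDB and -0.36 in RelB-DBDB. The sterol efflux and LXR genes ran the other way, with -0.03 in IFNAR;RelB-DBDB and 0.42 in RelB-DBDB. With library totals all 17 sterol synthesis and all 5 SREBP control genes had the lower (or less raised) change in RelB-DBDB, as did 6 of 8 fatty acid genes and 1 of 6 efflux and LXR genes, where 65.5% of all genes did. The smallest differences among the sterol synthesis genes were 0.024 for Fdft1, 0.15 for Pmvk and 0.17 for Idi1 (log2). Median-ratio factors were 1.05 in control and 0.792 at 8 h in RelB-DBDB, and 1.11 and 1.02 in IFNAR;RelB-DBDB. They raise the 8 h change more in RelB-DBDB, by more than these smallest differences. The count of all 17 therefore does not hold with them, and the other counts need not.

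The size of the fall in each genotype can be read as the part of the control level left at 8 h, with a 95% interval that covers counting error only. Fasn stood at 85.7% (78.01% to 93.99%) in IFNAR;RelB-DBDB and at 34.7% (32.4% to 37.1%) in RelB-DBDB. Stard4 stood at 99.2% (86.8% to 113%) in IFNAR;RelB-DBDB and at 41.8% (38.5% to 45.4%) in RelB-DBDB. Srebf2 stood at 64.6% (60.5% to 68.97%) in IFNAR;RelB-DBDB and at 39.1% (37.6% to 40.7%) in RelB-DBDB. Dhcr7 stood at 26.4% (18.3% to 37.1%) in IFNAR;RelB-DBDB and at 13.2% (11.03% to 15.8%) in RelB-DBDB. Scd1 stood at 21.3% (18.4% to 24.4%) in IFNAR;RelB-DBDB and 23.4% (22.2% to 24.6%) in RelB-DBDB, and Fads1 at 41.6% (31.6% to 54.1%) in IFNAR;RelB-DBDB and 36.8% (31.1% to 43.5%) in RelB-DBDB. Each is a ratio of 1 library to 1 control, so the intervals hold no spread between cultures and do not test a difference between the genotypes.

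Much of the divergence fell between 3 h and 8 h. At 3 h the median change of the sterol synthesis genes was -0.34 in IFNAR;RelB-DBDB and -0.31 in RelB-DBDB, and from 3 h to 8 h the median step was -0.06 in IFNAR;RelB-DBDB and -0.72 in RelB-DBDB. For the SREBP control genes the step was -0.14 in IFNAR;RelB-DBDB and -0.96 in RelB-DBDB, and for all genes 0.04 and -0.22. Insig1, Mvd, Lss, Msmo1 and Scd2 were higher at 8 h than at 3 h in IFNAR;RelB-DBDB and lower at 8 h than at 3 h in RelB-DBDB. Scd1, Dhcr7, Srebf1 and Srebf2, among others, were lower at 8 h than at 3 h in both. The step was below 0 in 10 of 17 sterol synthesis genes in IFNAR;RelB-DBDB and in 15 in RelB-DBDB. For the 5 SREBP control genes these counts were 3 and 5, and for all 12297 genes 5609 and 7974.

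**Figure D4:**
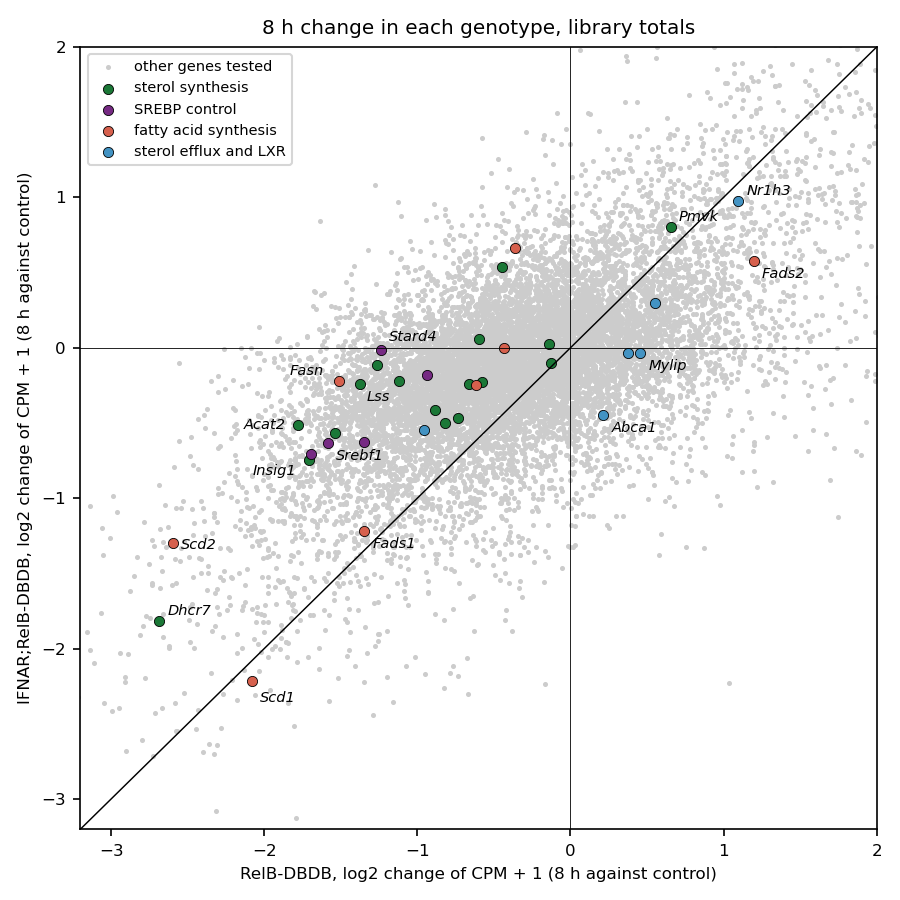
Each point is a gene, with its log2 change of CPM + 1 at 8 h against control in IFNAR;RelB-DBDB (vertical axis) and in RelB-DBDB (horizontal axis), 1 library against 1 control each. The diagonal marks equal changes, grey points are the other genes tested, and 330 of 12297 genes lie beyond the axes. With the library totals used here, all sterol synthesis and SREBP control genes lie above the diagonal, and Scd1, Fads2, Abca1 and Mylip below it.

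The difference was tested with a term for IFNAR;RelB-DBDB at 8 h, which sets the genotype difference at 8 h against that in control and at 1 and 3 h. It passed in 17 of the 36 genes, 16 of them higher in IFNAR;RelB-DBDB, where 29.1% of all genes passed, 21.7% higher and 7.45% lower. These 16 are 8 of 17 sterol synthesis genes, all 5 SREBP control genes and 3 of 8 fatty acid genes (Fasn, Scd2 and Acly). The term was 1.26 ± 0.12 for Fasn (log2, SE; limma adjusted p = 0.00121), 1.32 ± 0.33 for Acat2 (0.0222) and 1.19 ± 0.12 for Scd2 (0.00128). Abca1 was the 1 gene with a lower term, -0.59 ± 0.15 (0.0218), and Scd1 and Dhcr7 did not pass (-0.25 and 0.69, adjusted p = 0.212 and 0.0739). The term rests on 1 pair of 8 h libraries, so the genotype and the RelB-DBDB library at 8 h cannot be told apart, and Gapdh, a glycolytic gene often used as a standard, was at 942, 984, 904 and 673 CPM in IFNAR;RelB-DBDB and 1083, 1088, 937 and 454 CPM in RelB-DBDB, with a term of 0.70 (limma adjusted p = 0.00436).

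With median-ratio factors the term passed in 16 of the 36 genes, 12 higher and 4 lower, where it passed in 1261 genes higher and 1757 lower of all 12297. All 5 SREBP control genes were still among the 12, and Mvk, Cyp51, Hsd17b7 and Acly were not. With TMM factors, another scaling, the term passed in 14 of the 36 genes, and Scap and Sqle were lost in addition. With no filter on low values Srebf2 and Stard4 were among those lost. With median-ratio factors the median 8 h change of the sterol synthesis genes was -0.12 in IFNAR;RelB-DBDB and -0.48 in RelB-DBDB. That of the SREBP control genes was -0.50 in IFNAR;RelB-DBDB and -0.94 in RelB-DBDB. The medians of all genes were at -0.0014 in IFNAR;RelB-DBDB and 0.0024 in RelB-DBDB.

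**Figure D5:**
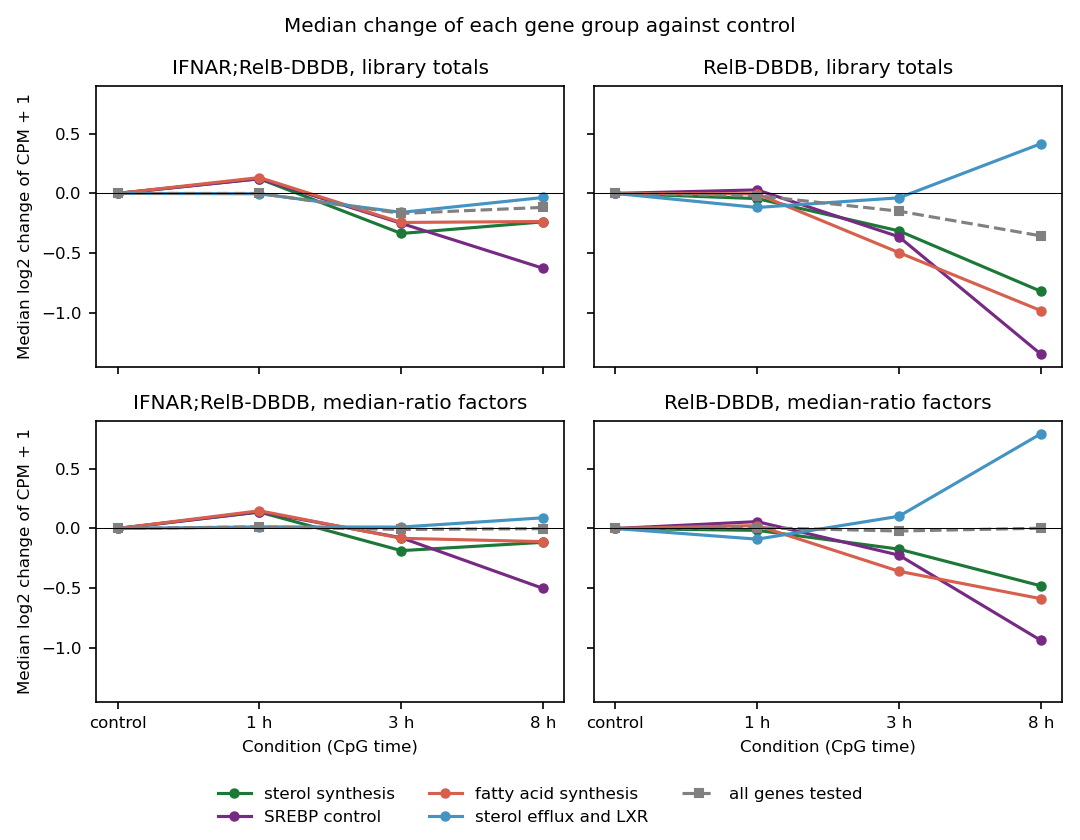
Median log2 change of CPM + 1 against control (vertical axis) for each role and for all genes tested (grey squares) in control and at 1, 3 and 8 h (horizontal axis), for IFNAR;RelB-DBDB on the left and RelB-DBDB on the right, with library totals above and median-ratio factors below. The SREBP control line ends lowest in all 4 panels, at -0.63 and -1.35 with library totals. The sterol efflux and LXR line ends highest in all 4 panels.

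Other genes of these pathways, from lists of the wider pathway, were counted at 8 h against the same shares of all genes, 6.51% higher and 15.1% lower, and the same median of -0.23. Of 24 tested sterol pathway genes outside the 36, 1 rose and 5 fell, with a median of -0.19. The lipid transfer protein gene Osbpl3 rose (3.09 ± 0.28, limma adjusted p = 0.00104), and Soat2, which encodes an enzyme that esterifies cholesterol, fell (-1.32 ± 0.28), as did the thiolase Acat1 (-0.79 ± 0.16). Of 26 tested fatty acid pathway genes, 6 rose and 8 fell, with a median of -0.48. Acsl1, an acyl-CoA synthetase, rose (2.83 ± 0.21, limma adjusted p = 0.000463) and so did the acetyl-CoA synthetase Acss2 (1.40 ± 0.26), while the phosphatidate phosphatase Lpin1 (-2.01 ± 0.36) and the thioesterase Acot2 (-1.46 ± 0.33) fell. Of 14 tested LXR targets and partners, none rose and 6 fell, with a median of -0.61, among them the phospholipid transfer protein gene Pltp (-1.40 ± 0.22), the LXR partner Rxra (-1.19 ± 0.19) and the lipid droplet gene Plin2 (-0.98 ± 0.12).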

How the data were processed

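The deposited table holds a signal equal to CPM plus 1, as a test of the file showed: no column goes below 1, and after subtracting 1 every value is a whole number of reads to within 0.01 read. Per the labels' protocols, 1 µg of RNA per library went into a KAPA stranded mRNA kit and single-end reads of 50 bp on a HiSeq instrument. The submitters' processing notes name cutadapt, edgeR and the build mm10. For the aligner, annotation and use of strand the entry is not given in the sources used, so overlapping genes cannot be separated.

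The 36 genes and the other lists were chosen with earlier results of these data known. The table has 27178 rows, of which 2161 carry no gene name (0.0737% to 0.131% of reads) and were not tested, and 16 columns of other samples that were not used. The planned design allowed for counts. As the file holds normalized values, limma 3.58.1 (R 4.3.3, trended eBayes) was applied to log2(CPM + 1), with genotype and condition as terms on all 8 libraries (3 residual degrees of freedom), or with a term added for IFNAR;RelB-DBDB at 8 h (2 residual degrees of freedom), and p-values were adjusted over 12297 genes by the Benjamini-Hochberg method. The scale understates the change of low genes. Each genotype and condition has 1 library, so replicate error is not measured. A p-value compares the change with the disagreement between the genotypes, drawn toward its trend over all genes tested. Ratios of single libraries have exact 95% intervals from counting error only. Values for all 8 libraries are given for genes past the threshold, for the 2 genes of each role with the largest 8 h change and for those with a genotype difference in the 8 h change. Context genes are named when past the threshold with the largest changes. Some genes of the wider lists are not reported here. Coordinates are from GENCODE M21 (mm10), and promoter windows from RefSeq (GRCm38.p6). The model was also run on simulated data with a fixed spread and no library that stood apart. That run does not bear on the effect of the RelB-DBDB library at 8 h. Figures used matplotlib 3.10.9 in Python 3.11.15. Alternatives comprised other scalings, pseudocounts, filters, limma-voom on the worked-back reads, a test against a fold of 1.5, a fit without the genotype term and leaving out each library. The term for IFNAR;RelB-DBDB at 8 h could not be fitted without the genotype term or without either 8 h library.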

Additional observations from a re-analysis of the deposited data

Results flagged for a closer look

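In 17 of the 36 genes the 8 h change differed between the genotypes by the test of the difference itself (limma, term for IFNAR;RelB-DBDB at 8 h), and 29.1% of all genes did so too. Among sterol synthesis genes the difference, IFNAR;RelB-DBDB minus RelB-DBDB on the log2 scale, was 1.32 for Acat2, 1.18 for Lss, 1.17 for Mvd, 0.89 for Hsd17b7, 0.81 for Msmo1, 0.81 for Sqle, 0.63 for Mvk and 0.44 for Cyp51. Among SREBP control genes it was 1.06 for Stard4, 1.02 for Insig1, 0.92 for Srebf1, 0.76 for Scap and 0.75 for Srebf2. Among fatty acid genes it was 1.26 for Fasn, 1.19 for Scd2 and 0.35 for Acly, and Abca1 had -0.59. The limma adjusted p-values ran from 0.00121 (Fasn) to 0.0491 (Cyp51). With median-ratio factors Mvk, Cyp51, Hsd17b7 and Acly no longer passed (0.35, 0.15, 0.61 and 0.06). With TMM factors Scap and Sqle were lost in addition. Each value rests on 1 library per genotype at 8 h, and the RelB-DBDB one had 6.26% mitochondrially encoded reads, against 2.41% in the IFNAR;RelB-DBDB one. The part of that library in these differences was not tested.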

How the results depend on the processing

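Of the 12 calls at 8 h, those of Dhcr7 and Scd1 held under all 20 alternatives, and each of the others was lost under 1 (Scd2) to 12 (Cyp51) of them. Of the 36 genes, 12 passed at 8 h, against 23 with limma-voom, 3 against a fold of 1.5, 5 without the genotype term and 2 to 30 when 1 library was left out. At 3 h 4 passed, against 2 with no filter on low values, 0 against a fold of 1.5, 1 without the genotype term, 13 under both settings that join another scaling (median-ratio or TMM) with leaving out the RelB-DBDB 8 h library, settings chosen after seeing the data, and 0 to 17 when 1 library was left out. For 8 h against 3 h 1 passed, against 2 with median-ratio or TMM factors, 0 against a fold of 1.5, 0 without the genotype term, 4 under both joined settings and 0 to 26 with 1 library left out. Between genotypes 0 passed, against 2 with median-ratio factors, TMM factors or limma-voom, 1 with a pseudocount of 0.5, 10 and 9 under the joined settings and 0 to 8 with 1 library left out. The genotype difference in the 8 h change passed in 17, against 4 with no filter and 2 against a fold of 1.5. It passed in 12 to 25 with 1 library of the 6 from control, 1 h and 3 h left out. This difference cannot be fitted without either 8 h library, so its dependence on those libraries was not tested. Over all genes the difference passed in 3582, against 743 with no filter. The 8 h change passed in 2654 genes, against 1629 with no filter and 4316 with limma-voom. With median-ratio factors 1227 genes were higher and 1107 lower at 8 h, against 801 and 1853 with library totals.

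The 8 h sign turned in 10 genes that had not passed. With median-ratio and with TMM factors it became 0.19 and 0.17 for Idi1, 0.15 and 0.13 for Fdft1, 0.042 and 0.022 for Acaca and 0.15 and 0.13 for Abca1, and with limma-voom -0.069 for Tm7sf2. Under the joined settings with median-ratio and with TMM factors it became 0.16 and 0.11 for Mvk and 0.12 and 0.071 for Acaca, and with median-ratio factors 0.026 for Fdft1 and 0.024 for Stard4. With 1 library left out the change ran from -0.58 to 0.043 for Mvk, -0.22 to 0.11 for Idi1, -0.32 to 0.41 for Tm7sf2, -0.44 to 0.0049 for Acaca, -0.20 to 0.51 for Elovl6, -0.41 to 0.18 for Abca1, -0.00076 to 0.34 for Abcg1 and -0.031 to 0.45 for Mylip. The median of the efflux and LXR genes ran from -0.016 to 0.40 in the same way, and in IFNAR;RelB-DBDB alone it was 0.090 with median-ratio and 0.049 with TMM factors. That of the sterol synthesis genes was -0.14 and -0.19 under the joined settings. The cause of these moves was not tested. The planned edgeR and DESeq2 alternatives were not run. The file holds CPM, but reads could be worked back from it, as was done for limma-voom. No paired analysis was possible because each genotype and condition has 1 library and the labels give no replicate number. Ch25h, Nr1h3, Tm7sf2, Fdps and Acat2 rest on few reads, so counting error limits them, and no library repeats a condition.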
